A study of Mus musculus with 6 samples.

Results

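The Clca genes (calcium-activated chloride channel accessory or regulator genes) lie in 1 cluster on mouse chromosome 3, and the 7 listed genes Clca1, Clca2, Clca3a1, Clca3a2, Clca3b, Clca4a and Clca4b were taken by symbol from the 52550 genes of each expression file. The family was picked with its values in the present contrast already known, mainly the lower Clca4b level in the knockout, so that the levels of its members are given as a description without a test. RNA-seq was performed on colon epithelial cells of male C57BL/6 mice, 3 samples from Zfp90fl/fl mice and 3 from Zfp90ΔIEC mice, and the question addressed here is how each Clca gene differed between the genotypes. Zfp90fl/fl littermates carry loxP sites around the last part of Zfp90, a KRAB zinc finger gene, and no Cre. Zfp90ΔIEC mice carry the same floxed alleles together with Villin-cre, which is active throughout the intestinal epithelium and spares other cells, so that Zfp90 is deleted in all intestinal epithelial cell types at once. All mice, 6 to 8 weeks old by the labels, received 10 mg/kg of azoxymethane (AOM), a colon carcinogen, and 3 cycles of dextran sulfate sodium (DSS), which injures the colon, at 2% in the drinking water for 7 days with 14 days of water after each, and were killed on day 80. The DSS strength is that of the labels, and the study's methods give a slightly higher one and the upper of these ages. No untreated mice were included, and the genotypes were housed apart, so that genotype and cage cannot be told apart.

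CLCA proteins were first described as chloride channels and are now regarded as secreted or membrane-attached proteins with a metalloprotease-like domain that cleave themselves and regulate channels made by other genes. CLCA1 is released by goblet cells with the mucins, is an abundant protein of colonic mucus, cleaves the mucin MUC2 and stabilises the chloride channel ANO1 at the cell surface. Clca4a and Clca4b are expressed by enterocytes and surface colonocytes, and Clca2 is known from stratified squamous epithelium.

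All 8 loci of the cluster, including the pseudogene Clca4c-ps, are on the minus strand in the GRCm38 annotation. In chromosome order they are Clca3a1 (chr3:144729677-144760977), Clca3a2 (chr3:144796559-144819494), Clca3b (chr3:144822623-144849357), Clca4c-ps (chr3:144861826-144896011), Clca4b (chr3:144910921-144932529), Clca4a (chr3:144952480-144975045), Clca1 (chr3:145003817-145032776) and Clca2 (chr3:145070263-145099443). The annotated transcript used for each member has 14 exons. The resemblance of neighbours decides how far short reads can be assigned, and it differs within the cluster. The coding sequences of Clca4a and Clca4b are both 2775 bases long, align without a gap and differ at 110 bases, an identity of 96.0%. Those of Clca3a1 and Clca3a2 are both 2706 bases long and differ at 79 bases (97.1%). Clca3b shared 87.8% with Clca3a1 and 87.6% with Clca3a2 over the aligned bases, and Clca1 shared 73.7% with Clca4b and 72.4% with Clca4a. The differences between Clca4a and Clca4b are spread along the transcripts, since 20.9% of the 50-base windows of Clca4a recur in Clca4b but 0.665% of its 150-base windows do, and 150 bases is the length of 1 read. The stretch with the most differences, 11 in 90 bases at coding positions 2635 to 2724, is shown because the contrast described below rests on telling these genes apart. Capitals mark the bases that differ.
Clca4a: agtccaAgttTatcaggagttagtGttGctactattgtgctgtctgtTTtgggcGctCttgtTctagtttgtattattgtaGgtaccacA
Clca4b: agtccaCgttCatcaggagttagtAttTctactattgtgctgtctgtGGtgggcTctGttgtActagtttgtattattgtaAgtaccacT
The longest identical run of the Clca4a and Clca4b transcripts is 168 bases, and a 150-base read wholly inside it cannot be assigned by its own bases. As an example of the other extreme, coding positions 90 to 179 are the same in both genes, although this stretch is shorter than 1 read.
Clca4a and Clca4b: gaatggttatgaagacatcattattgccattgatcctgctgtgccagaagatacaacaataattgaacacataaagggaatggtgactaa

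Promoter sequences (RefSeq, GRCm38) were found for 5 of the 7 members, Clca2, Clca3a1, Clca3a2, Clca3b and Clca4b, and not for Clca1 and Clca4a. The promoters of Clca3a2 and Clca3b are alike over 112 aligned columns (96 matching, 85.7%), and no other pair of these promoters aligned over more than 23. Of these columns, 47 lie in the annotated first exon of Clca3b. The part upstream of both annotated first exons spans 65 columns, of which 50 match (76.9%). It is shown, with capitals at the bases that differ or have no partner, because these genes are alike there and differ widely in level. It lies at chr3:144819542-144819601 for Clca3a2 and chr3:144849358-144849422 for Clca3b, read 5′ to 3′ on the minus strand.
Clca3a2: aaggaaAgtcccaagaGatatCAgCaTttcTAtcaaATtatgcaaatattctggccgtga
Clca3b: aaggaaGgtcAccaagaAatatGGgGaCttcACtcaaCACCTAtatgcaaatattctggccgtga
The 120 bases upstream of Clca4b, at chr3:144932530-144932649 on the minus strand, are shown because this gene carried the widest difference between the genotypes. Capitals mark a TATATA run close to the start, which was looked for after the sequence had been seen.
Clca4b: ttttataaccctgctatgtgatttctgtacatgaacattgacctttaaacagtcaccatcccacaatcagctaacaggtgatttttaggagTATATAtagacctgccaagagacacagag
The search covered both strands of the 250-base window before each start, for the members and for all promoters alike. TATATA was present in Clca4b and Clca3a1 and in 5.56% of 27025 promoters, and TATAAA was present in Clca4b and in 13.0% of them. The AP-1 letters TGANTCA were present in Clca3a2 and Clca3b and in 6.87% of promoters. TTTATNG (the CDX core), TTCNNNGAA (STAT) and CAAAGTCCA (the HNF4 core), held by 10.2%, 7.18% and 0.381% of promoters, were not found in these 5 windows. Such matches describe letters, not binding.

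The values are FPKM (fragments scaled to transcript length and to the number of mapped fragments), which allow levels to be compared between genes. The files hold no read totals, and the steps between low values gave an estimate of 25.9 to 28.8 M fragments per sample. Zfp90 was listed at 0.630, 0.490 and 0.569 FPKM in the Zfp90fl/fl samples and at 0.0846, 0.195 and 0.166 FPKM in the Zfp90ΔIEC samples, without overlap. This includes replicates 2 and 3 of Zfp90ΔIEC, whose genotype labels read Zfp91 and Zfp92 and which were grouped by their titles. The summed level of 10 epithelial genes such as Epcam and Krt8 was 6083 to 6937 FPKM, whereas 11 genes of fibroblasts and smooth muscle summed to 0.827 to 1.77 FPKM and 9 endothelial genes to 1.14 to 1.57 FPKM. Some leukocyte genes were lower in Zfp90ΔIEC. Summed over 15 genes they reached 34.0 to 55.3 FPKM in Zfp90fl/fl and 26.0 to 37.8 FPKM in Zfp90ΔIEC samples, with overlap, and most of this sum was Ly6g. Without Ly6g, an alternative chosen after the data were seen, the other 14 genes summed to 9.69 to 10.6 FPKM in Zfp90fl/fl and 3.75 to 4.83 FPKM in Zfp90ΔIEC samples, without overlap. S100a8 and S100a9 were above 0 in all 3 Zfp90fl/fl samples and at 0 in all 3 Zfp90ΔIEC samples. In bulk RNA, fewer cells of a type and less RNA per cell cannot be told apart.

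Genes were tested where 3 or more samples reached 1 FPKM, which left 11564, and the limma fit on log2(FPKM + 1) called 23 genes at an adjusted p under 0.05 (0.199%), 15 lower (0.13%) and 8 higher (0.0692%) in Zfp90ΔIEC. Of the 7 Clca genes, 6 passed the filter on low values and 1, Clca4b, was among the 23. Clca4b was no longer among the genes called when no filter was applied or when any 1 sample other than Zfp90fl/fl replicate 3 was left out. Clca4b, Clca3b and Clca3a2 were lower in every Zfp90ΔIEC sample than in any Zfp90fl/fl sample, a pattern held by 12.6% of the genes tested, and Clca4a was higher in every Zfp90ΔIEC sample, a pattern held by 8.73%. The groups overlapped for Clca1 and Clca3a1, as they did for Clca2, which did not pass the filter. The median log2 fold change of the 6 members was -0.29, against -0.02 over all genes tested. Since the members were chosen with this contrast in view, these counts are given without a test and nothing is read from them.

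**Figure D1:**
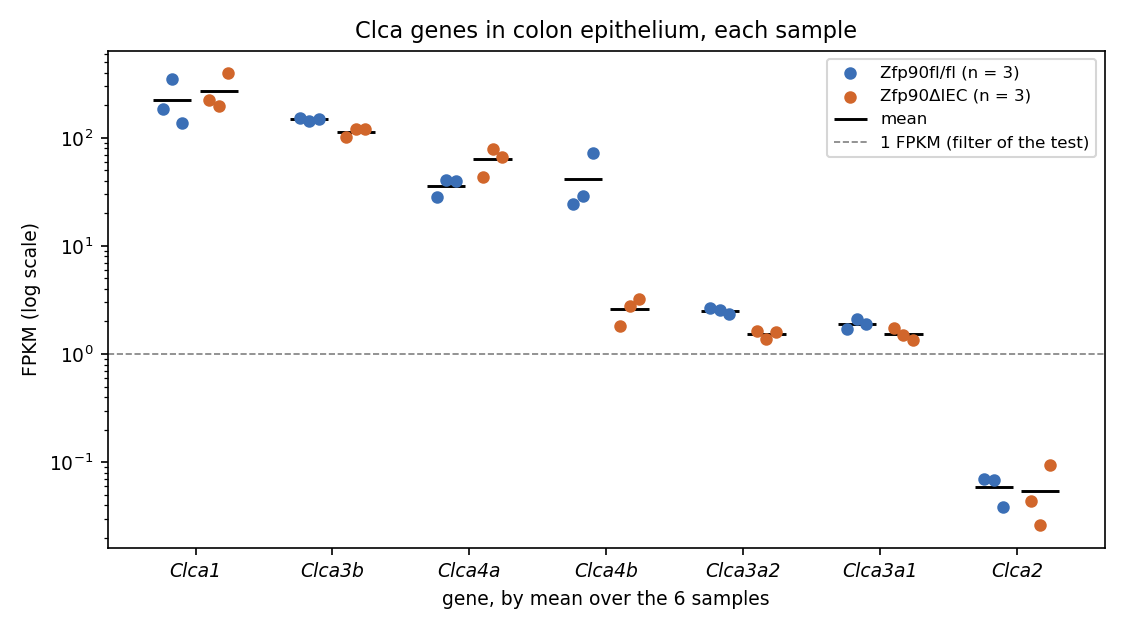
FPKM (log scale) of the 7 Clca genes in each of 3 Zfp90fl/fl and 3 Zfp90ΔIEC samples, with group means as black bars and the 1 FPKM filter as a dashed line. Clca4b lies at 24.5 to 71.6 FPKM in Zfp90fl/fl and 1.81 to 3.22 FPKM in Zfp90ΔIEC, while the Clca1 points of both genotypes overlap.

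Clca4b showed the widest difference between the genotypes within the family. Its level was 24.5, 28.7 and 71.6 FPKM in the Zfp90fl/fl samples and 1.81, 2.80 and 3.22 FPKM in the Zfp90ΔIEC samples. Replicate 3 of Zfp90fl/fl was well above the other two, and the lowest Zfp90fl/fl sample was still far above the highest Zfp90ΔIEC sample. The means were 41.6 ± 26.1 and 2.61 ± 0.722 FPKM (SD, n = 3 each), a 15.9-fold lower mean in Zfp90ΔIEC (-3.99 in log2). The log2 fold change of the fit, taken on log2(FPKM + 1), was smaller in size at -3.42 (SE 0.385). Without replicate 3 of Zfp90fl/fl the ratio of the means was 10.2-fold, and without any 1 of the other 5 samples it was 13.8-fold to 19.2-fold. The sample highest in Clca4b was also highest in Ly6g (44.7 FPKM), whereas the other 14 leukocyte genes summed to 9.69, 10.1 and 10.6 FPKM in the Zfp90fl/fl samples. Like Clca4b, this sum was lower in all Zfp90ΔIEC samples. Ly6g overlapped between the genotypes, at 23.9 to 44.7 FPKM in Zfp90fl/fl and 21.9 to 32.9 FPKM in Zfp90ΔIEC. The part of either in the Clca4b level was not tested. At the estimated depth, the Zfp90ΔIEC levels correspond to about 149 to 271 fragments.

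Clca4a, the most similar gene, lay on the opposite side. It was measured at 28.1, 40.6 and 39.8 FPKM in Zfp90fl/fl and at 43.4, 79.5 and 66.4 FPKM in Zfp90ΔIEC, so that the lowest Zfp90ΔIEC sample was just above the highest Zfp90fl/fl sample. The means were 36.2 ± 7.02 and 63.1 ± 18.3 FPKM (SD, n = 3 each) and the log2 fold change was 0.76 (SE 0.236). Clca4b made up 46.6, 41.4 and 64.3% of the Clca4a plus Clca4b level in the Zfp90fl/fl samples and 4.01, 3.40 and 4.62% in the Zfp90ΔIEC samples. This share was 50.8 ± 12.0% in Zfp90fl/fl and 4.01 ± 0.612% in Zfp90ΔIEC (SD, n = 3 each). Replicate 1 was lowest in Clca4a in both genotypes. The sum of both genes overlapped between the genotypes, at 52.5 to 111 FPKM in Zfp90fl/fl and 45.2 to 82.3 FPKM in Zfp90ΔIEC. How the authors' counting shared fragments between these genes is not given in the sources used here. Within the transcript annotation, 62.9% of the 50-base windows of Clca4a and 75.2% of those of Clca4b occur in no other gene. The pseudogene Clca4c-ps, whose longest run shared with Clca4a is 343 bases, was listed at 0.986, 1.43 and 1.29 FPKM in Zfp90fl/fl and at 1.31, 3.22 and 3.14 FPKM in Zfp90ΔIEC, and its groups overlapped.

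**Figure D2:**
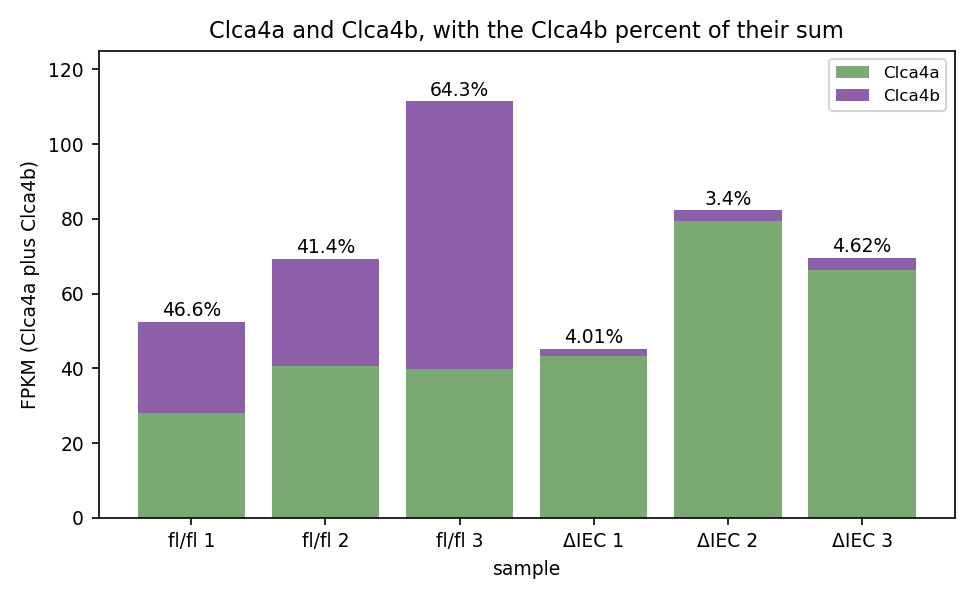
Stacked FPKM of Clca4a (green) and Clca4b (purple) in each sample, with the Clca4b percent of the sum above each bar. Clca4b takes 41.4 to 64.3% in the 3 Zfp90fl/fl samples and 3.40 to 4.62% in the 3 Zfp90ΔIEC samples, and the bar heights of the genotypes overlap.

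Clca1, the goblet cell member, was the most abundant Clca gene by group mean in both genotypes and varied widely within each. It was measured at 186, 351 and 136 FPKM in Zfp90fl/fl and at 222, 196 and 394 FPKM in Zfp90ΔIEC. The high sample of each group exceeded the lowest sample of its own group by more than the group means differed, and the groups overlapped. The means were 224 ± 112 and 271 ± 108 FPKM (SD, n = 3 each), with a log2 fold change of 0.31 (SE 0.387). The ratio of Clca1 to Muc2, the gel-forming mucin released from the same cells, also overlapped, at 0.316 to 0.790 in Zfp90fl/fl and 0.220 to 0.849 in Zfp90ΔIEC. The Zfp90ΔIEC sample with the highest Muc2 (1010 FPKM, replicate 1) was not the one with the highest Clca1 (replicate 3). Clca1 had no 50-base window in common with another gene.

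Clca3b was the steadiest of the abundant members. It was measured at 154, 144 and 149 FPKM in Zfp90fl/fl and at 102, 120 and 120 FPKM in Zfp90ΔIEC. Its means were 149 ± 4.87 and 114 ± 10.8 FPKM (SD, n = 3 each), and the log2 fold change was -0.38 (SE 0.0795), smaller in size than that of Clca4b with no overlap of the groups. Clca3a2 was measured at 2.66, 2.56 and 2.33 FPKM in Zfp90fl/fl and at 1.63, 1.39 and 1.61 FPKM in Zfp90ΔIEC, with a log2 fold change of -0.47 (SE 0.0749). Clca3a2 thus stood at 1.69 ± 0.114% of Clca3b in Zfp90fl/fl and 1.36 ± 0.226% in Zfp90ΔIEC (SD, n = 3 each). This percentage overlapped between the genotypes. The promoter stretch printed above matches between these genes in 76.9% of its columns. Clca3a1, the closest relative of Clca3a2, was measured at 1.72, 2.09 and 1.91 FPKM in Zfp90fl/fl and at 1.73, 1.49 and 1.36 FPKM in Zfp90ΔIEC, with overlap and a log2 fold change of -0.20 (SE 0.0869). The levels of Clca3a1 and Clca3a2 are uncertain relative to each other, since 23.6% of the 50-base windows of Clca3a1 recur in Clca3a2.

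Clca2 was close to the limit of detection. It was listed at 0.0705, 0.0689 and 0.0382 FPKM in Zfp90fl/fl and at 0.0434, 0.0261 and 0.0938 FPKM in Zfp90ΔIEC, which corresponds to at most about 10.5 fragments in any sample. A difference between the genotypes was not detectable at this depth. The squamous epithelial genes that usually accompany it were also low, with a sum of 1.29 to 2.41 FPKM over 11 genes, and Krt5 and Trp63 were listed at 0 in all 6 samples.

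By group mean the order of levels in Zfp90fl/fl was Clca1, Clca3b, Clca4b, Clca4a, Clca3a2, Clca3a1 and Clca2. The ranges of Clca1 and Clca3b overlapped there, as did those of Clca4b and Clca4a, and Clca4a was the higher of the latter in 2 of 3 samples. In Zfp90ΔIEC the order was Clca1, Clca3b, Clca4a, Clca4b, Clca3a2, Clca3a1 and Clca2, and of these neighbours only Clca3a2 and Clca3a1 overlapped. The summed level of the family was 396, 569 and 401 FPKM in Zfp90fl/fl and 372, 401 and 587 FPKM in Zfp90ΔIEC, with means of 455 ± 98.3 and 454 ± 117 FPKM (SD, n = 3 each). The samples with the highest sums were those with the highest Clca1. Without Clca1 the sum was 211 to 265 FPKM in Zfp90fl/fl and 150 to 206 FPKM in Zfp90ΔIEC, without overlap. This sum still holds Clca4b, at 24.5 to 71.6 FPKM in Zfp90fl/fl and 1.81 to 3.22 FPKM in Zfp90ΔIEC. The family was picked mainly for that difference, so the sum cannot be read as a lower level of the other members.

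**Figure D3:**
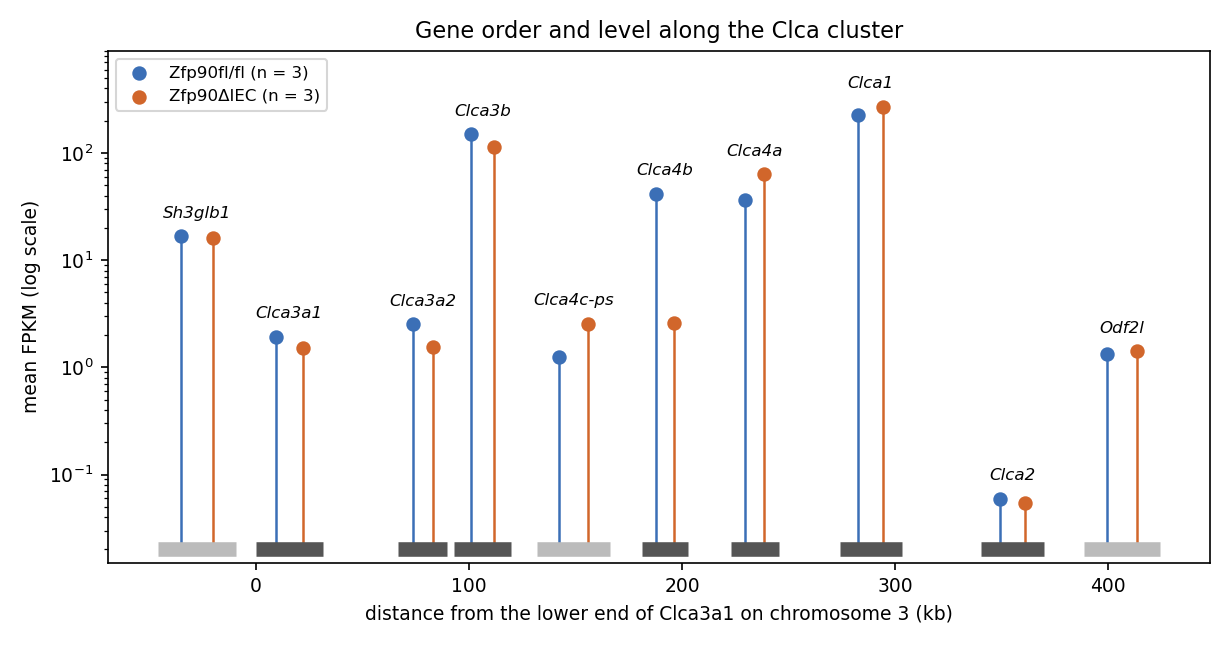
Mean FPKM (log scale, n = 3 per genotype) of the Clca genes, the pseudogene Clca4c-ps and the flanking genes Sh3glb1 and Odf2l, placed by distance in kb from the lower end of Clca3a1, with gene extents as boxes (dark for the 7 members). Clca4b falls between Clca4c-ps and Clca4a, which are both higher on average in Zfp90ΔIEC, and the flanking genes are at 16.7 and 16.2 FPKM (Sh3glb1) and 1.32 and 1.41 FPKM (Odf2l) in Zfp90fl/fl and Zfp90ΔIEC.

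Neighbours in the cluster differed in sign. Clca4b lies between Clca4c-ps and Clca4a, and both of these had the higher mean in Zfp90ΔIEC. The genes that flank the cluster, Sh3glb1 (16.7 ± 2.01 and 16.2 ± 1.10 FPKM) and Odf2l (1.32 ± 0.204 and 1.41 ± 0.0916 FPKM, SD, n = 3 each, Zfp90fl/fl first), overlapped between the genotypes.

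Genes of the same cells and of the known partners of the family were taken from 4 lists. No gene of the goblet cell, surface colonocyte, chloride transport or type 2 cytokine lists passed the adjusted threshold in the limma fit, and counts at an unadjusted p under 0.05 are read against 8.09% of all genes tested for lower and 6.56% for higher genes. Of 19 goblet cell genes tested, 5 were higher (Zg16, Agr2, Spdef, Capn9 and Klk1) and 1 was lower (Retnlb) in Zfp90ΔIEC at this level, with a list median log2 fold change of 0.18. The lectin Zg16 was measured at 408 to 529 FPKM in Zfp90fl/fl and 634.5 to 739.7 FPKM in Zfp90ΔIEC (log2 fold change 0.52, SE 0.112), and the disulfide isomerase Agr2 at 541 to 588 FPKM and 633 to 1027 FPKM (0.46, SE 0.168). Muc2 was measured at 431 to 444 FPKM and 465 to 1010 FPKM (0.57, SE 0.255), and the kallikrein Klk1 at 453 to 523 FPKM and 547 to 790 FPKM (0.38, SE 0.142). Retnlb, a goblet cell antimicrobial protein named here after its values were seen, was measured at 53.5 to 99.0 FPKM and 21.5 to 59.5 FPKM (-1.18, SE 0.383). The count of 5 fell to 1 without Zfp90fl/fl replicate 3 and to 3 without a filter or without replicate 1 of either genotype, and was 8 with the replicate block. Retnlb was no longer counted without Zfp90fl/fl replicate 2 or without replicate 1 or 2 of Zfp90ΔIEC. Clca1 lay within the range of this list, and its groups overlapped as did those of 14 of the 19 genes. The groups of the other 5 did not overlap, while over all genes tested 12.6% were lower and 8.73% higher without overlap.

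Of 16 surface colonocyte genes, 8 were higher and 0 lower in Zfp90ΔIEC at an unadjusted p under 0.05, with a list median log2 fold change of 0.27. The lower count became 1 without Zfp90ΔIEC replicate 1 and 2 without Zfp90ΔIEC replicate 3. The carbonic anhydrase Car1 was measured at 4033 to 5628 FPKM in Zfp90fl/fl and 6349 to 10059 FPKM in Zfp90ΔIEC (log2 fold change 0.73, SE 0.192), and the guanylin gene Guca2a at 799 to 959 FPKM and 1097 to 1390 FPKM (0.49, SE 0.117). The defence protein gene Lypd8 (-0.18, SE 0.111) and the membrane mucin Muc3 (0.14, SE 0.0848) overlapped between the genotypes. The anion exchanger Slc26a3 and the sodium-proton exchanger Slc9a3, named after their values were seen, had log2 fold changes of 0.52 (SE 0.0944) and 0.91 (SE 0.203). Clca4a had the same sign as these transporters and its ratio to Slc26a3 overlapped between the genotypes, at 0.369 to 0.528 in Zfp90fl/fl and 0.401 to 0.710 in Zfp90ΔIEC. Clca4b stood outside the range of the list, whose lowest member was Lypd8.

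Of 15 genes of chloride channels and transport partners, 3 were higher (Ano10, Slc4a4 and Kcnq1) and 0 lower at an unadjusted p under 0.05, with a median of 0.07. The count of 3 fell to 0 without replicate 3 of either genotype, and to 1 with the replicate block, without Zfp90fl/fl replicate 1 or without Zfp90ΔIEC replicate 2. The potassium channel subunit Kcne3 (63.4 ± 4.31 and 59.8 ± 0.170 FPKM), the cotransporter Slc12a2 (53.0 ± 3.26 and 56.9 ± 15.2 FPKM), the chloride channel Clcn2 (29.2 ± 2.91 and 30.1 ± 7.90 FPKM) and the exchanger Slc9a2 (25.9 ± 1.34 and 29.7 ± 3.86 FPKM, SD, n = 3 each, Zfp90fl/fl first) overlapped between the genotypes. Ano1, the channel that CLCA1 is known to stabilise, had a log2 fold change of 0.06 (SE 0.113), and Cftr of 0.03 (SE 0.0882).

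The type 2 cytokines that raise goblet cell Clca1 in other settings were hardly measured. Of 16 genes of this pathway 5 passed the filter, and Il9, Il13, Il25 and Il13ra2 were listed at 0 in all 6 samples. Il4ra, a receptor subunit for IL-4 and IL-13, was measured at 5.76 to 7.90 FPKM in Zfp90fl/fl and 3.52 to 4.36 FPKM in Zfp90ΔIEC (log2 fold change -0.67, SE 0.116), and the kinase Tyk2 at 6.72 to 7.21 FPKM and 5.95 to 6.33 FPKM (-0.16, SE 0.0566). These were the 2 genes lower at an unadjusted p under 0.05, and 1 was left without replicate 2 or 3 of either genotype. Il13ra1 (-0.10, SE 0.0829), Stat6 (-0.05, SE 0.0544) and Jak1 (-0.04, SE 0.0609) overlapped between the genotypes.

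**Figure D4:**
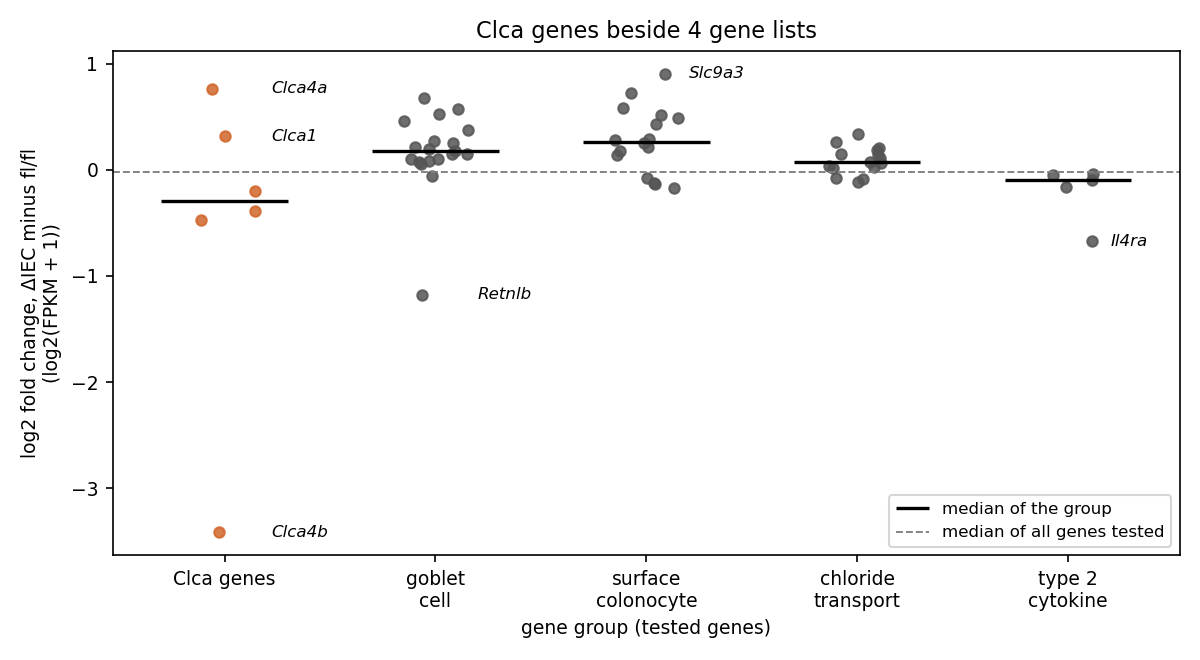
log2 fold change (Zfp90ΔIEC minus Zfp90fl/fl, on log2(FPKM + 1)) of the 6 tested Clca genes and of the tested genes of 4 lists, with the group median as a black bar and the median of all genes tested as a dashed line. Clca4b at -3.42 lies below every listed gene, whereas Clca1 at 0.31 and Clca4a at 0.76 lie within the range of the goblet cell and surface colonocyte lists.

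The members also differed in which genes their levels followed over the 6 samples. Among 6657 genes with a mean of at least 5 FPKM, those with the highest Pearson correlation with Clca1 were Tomm22, Adtrp, Fcgbp, S100a6 and Vps53 (r of 0.967 to 0.973). Fcgbp, a mucus protein of goblet cells, was measured at 104, 140 and 101 FPKM in Zfp90fl/fl and 123, 113 and 161 FPKM in Zfp90ΔIEC, in the same sample order as Clca1. For Clca4a they were Ccna2, Ube2c, Adk, Sdcbp2 and Gtpbp2 (r of 0.988 to 0.995), of which Ccna2 and Ube2c act in the cell cycle. For Clca4b they were Rps10, Nfkb2, Ptprj, Appl1 and Reg3g (r of 0.985 to 0.989), and Reg3g, an antimicrobial lectin, was measured at 85.4, 164 and 244 FPKM in Zfp90fl/fl and 5.56, 14.5 and 11.9 FPKM in Zfp90ΔIEC. The 6 points share genotype in sets of 3, and 8, 67 and 46 genes reached an r of 0.95 with Clca1, Clca4a and Clca4b.

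After subtraction of each genotype's mean, the genes most like Clca1 included Slc8a1, Pcdh1, Adtrp and Rpl4 (r of 0.986 to 0.993), with Adtrp in both views. Those most like Clca4a were B3gnt3, Prdx3, Il17rc, Cldn7 and Cox5a (0.997 to 1.000), and those most like Clca4b included Dnttip1, Rpl29, Socs3 and Polr2c (0.988 to 0.999). No gene was named for Clca4a or for Clca4b in both views. After this subtraction, 36, 189 and 30 genes reached an r of 0.95 with Clca1, Clca4a and Clca4b, so such values are not particular to the genes named. These correlations describe 6 libraries and carry no test.

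**Figure D5:**
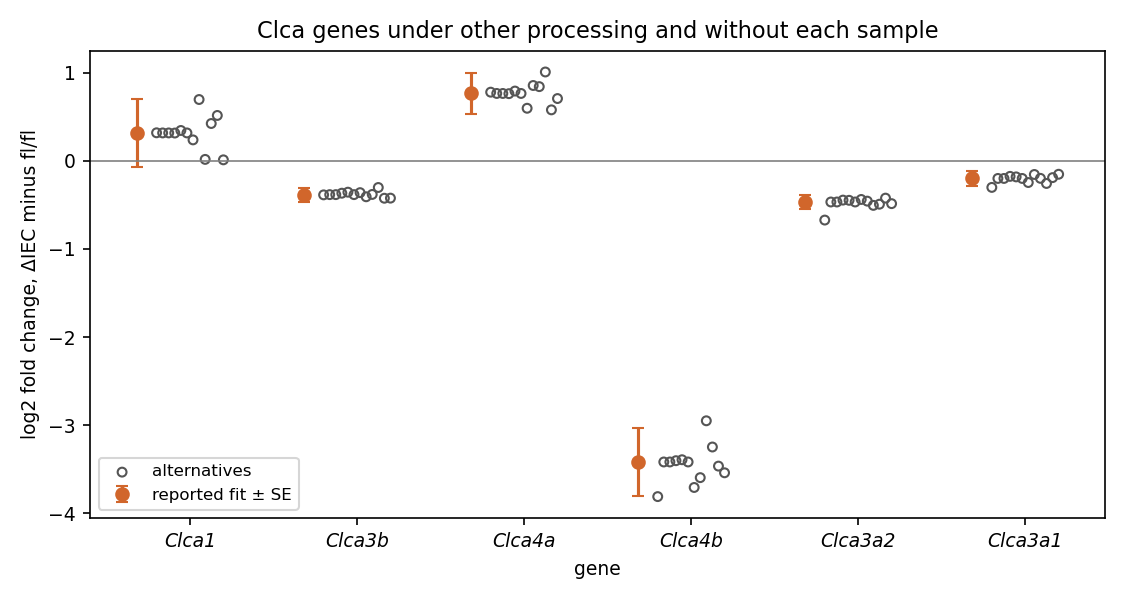
log2 fold change (Zfp90ΔIEC minus Zfp90fl/fl) of the 6 tested Clca genes in the reported fit with its SE (filled) and under 12 alternatives (open), namely 2 other filters, another pseudocount, 2 scalings, the replicate block and each sample left out. The other filters and the block leave these values as they are. Clca4b lies between -3.81 and -2.95 and Clca1 between 0.01 and 0.69.

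Of the 12 alternatives, 3 (both other filters and the replicate block) cannot move a gene's fold change, and the ranges rest on the other 9. The range was -3.81 to -2.95 for Clca4b, 0.58 to 1.01 for Clca4a and -0.43 to -0.30 for Clca3b. With a pseudocount of 0.1 the log2 fold change of Clca3a1 went from -0.20 to -0.30 and that of Clca3a2 from -0.47 to -0.67, and their ranges over the alternatives were -0.30 to -0.15 and -0.67 to -0.42. For Clca1 the range of 0.01 to 0.69 was set by leaving out single samples and reached almost to 0. Without replicate 3 of Zfp90ΔIEC the ratio of the Clca1 means, Zfp90ΔIEC over Zfp90fl/fl, was 0.932 in place of 1.21, so that the direction of the means turned.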

How the data were processed

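Colon epithelial cells were released with EDTA and DTT, and strand-specific TruSeq libraries were sequenced as paired reads of 150 bases. The authors deposited FPKM per gene, 1 file per sample. The submitters' notes name FastQC, STAR 2.5, Cuffnorm, DESeq 1.22.1 and build mm9, whereas the study's methods name TopHat, Cuffdiff and a human build, and the files list mouse Ensembl identifiers; which steps made the values is unresolved. Of 52550 genes, 52403 had a symbol in GENCODE M21 (GRCm38), the source of all coordinates and transcripts here. Whether counting used the strand is not given in the sources used here, so overlapping antisense genes are uncertain.

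From the deposited FPKM, log2(FPKM + 1) was fitted by genotype in limma 3.58.1 (R 4.3.3, intensity trend) over the 11564 genes that reached 1 FPKM in 3 or more samples, with Benjamini-Hochberg adjustment and a threshold of 0.05. Cuffdiff needs alignments and was not run. Genes below the filter take their values from the fit without it. The fit was tested on simulated data. Labels do not say that samples are separate animals, so that the spread may be partly technical. The members, lists and comparisons were chosen with earlier results of these data known.

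The genes named are the 7 members, Zfp90, the 5 genes most correlated with Clca1, Clca4a and Clca4b (mean of at least 5 FPKM), and in each list the genes past the threshold or else the 4 of highest mean; all others were named after their values were seen. Some genes that this rule names are not reported here. Transcripts were aligned with Biopython 1.88. Depth was estimated from the low values of genes with 1 annotated transcript, as the number that put the most of them near a whole number of fragments. At that number 51.2% to 54.8% of values lay within 0.1 of a whole step and the rest did not, so the estimate and the fragment numbers are rough. Alternatives were a pseudocount of 0.1, other filters, quantile and median ratio scaling, a replicate block and each sample left out. Shares and correlations were computed in pandas 2.3.3 and numpy 2.4.6 (Python 3.11.15), and plots drawn in matplotlib 3.10.9.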

Additional observations from a re-analysis of the deposited data

How the results depend on the processing

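The number of genes past the threshold was 23 as reported, 13 with a pseudocount of 0.1, 15 without a filter, 47 with a replicate block, and between 10 and 21 with 1 sample left out. The number of Clca genes past it was 1 as reported, 0 without a filter, and between 0 and 1 with 1 sample left out, where only leaving out Zfp90fl/fl replicate 3 kept Clca4b. With the replicate block 4 surface colonocyte genes passed, against 0 as reported, and no gene of the goblet cell, chloride transport or type 2 cytokine lists passed under any alternative. Whether the replicate numbers of the labels pair the samples was not tested. Deviations from the group means correlated at 0.19, 0.11 and 0.08 for replicates 1, 2 and 3, with no reference value to read them against. The 5 genes most like Clca1 and Clca4a kept a Spearman correlation of at least 0.829, and those most like Clca4b of at least 0.886. The cause of these changes was not tested. With 3 samples per genotype, no read counts and a number of fragments known only as an estimate, differences of Clca2 were not detectable.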

Other observations

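Of 8 crypt base and cycling cell genes tested, 6 were higher in Zfp90ΔIEC at an unadjusted p under 0.05 in limma, against 6.56% of all genes tested. These 6 were the cycling cell genes Mki67, Top2a, Pcna, Mcm2, Mcm5 and Ccnb1. The other 2, the crypt base genes Axin2 and Smoc2, overlapped between the genotypes. Their log2 fold changes were negative, at -0.31 (SE 0.149) and -0.03 (SE 0.105). Mki67, a gene of cycling cells, passed the adjusted threshold of limma (22.3 ± 0.452 and 30.0 ± 0.772 FPKM, SD, n = 3 each, log2 fold change 0.41, SE 0.0512). The mitotic cyclin gene Ccnb1 was measured at 5.46 to 6.47 FPKM in Zfp90fl/fl and 7.76 to 8.58 FPKM in Zfp90ΔIEC, and the stem cell gene Lgr5 overlapped, at 0.727 to 0.840 and 0.714 to 0.934 FPKM. The sums over this list were 106 to 116 FPKM in Zfp90fl/fl and 129 to 137 FPKM in Zfp90ΔIEC. Of 10 small intestine and Paneth cell genes 3 were tested, and the list summed to 12.8 to 23.5 FPKM over the 6 samples. Among leukocyte genes, Itgam, an integrin subunit of myeloid cells, was below the filter and was measured at 0.928 to 1.01 FPKM in Zfp90fl/fl and 0.132 to 0.180 FPKM in Zfp90ΔIEC, with an adjusted p of 0.0199 in the limma fit without a filter.

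Several genes annotated on the plus strand lie inside the Clca cluster. Gm16233 and Gm35066, which overlap Clca4a, were listed at no more than 1.17 and 0.338 FPKM in any sample, and Gm34866, which overlaps Clca3a1, at no more than 0.511 FPKM. The processed pseudogene Gm16215, which overlaps Clca3b, was listed at 0.502 to 0.997 FPKM in Zfp90fl/fl and 0.187 to 0.491 FPKM in Zfp90ΔIEC, without overlap. Like Clca3b it was lower in Zfp90ΔIEC, and its part in the Clca3b level was not tested.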
